A study of Triticum monococcum with 54 samples.

Results

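Filling grain of the diploid wheat einkorn, Triticum monococcum, was compared between a high and a low nitrogen (N) supply, with sulfur (S) supplied in both, when 600 degree days (°Cd, the sum of daily temperatures) had passed since anthesis, when the flower opens. The comparison was defined by label and not by any measured value: 3 libraries of N+S+ grain (6 mM N and 2 mM S) against 3 libraries of N-S+ grain (0.5 mM N, with the same 2 mM S), which are 6 of the 54 libraries of the study. All plants came from 1 einkorn accession and stood in a greenhouse, received only demineralized water up to anthesis, and were given their nutrient solutions from 200 to 700 °Cd, so the grain of 600 °Cd was sampled while treatment went on. The contrasts set beside it are N+S- grain (6 mM N, no S) against N-S- grain (no N, no S) at the same stage, and N+S+ against N-S+ grain at 300, 400 and 500 °Cd. How many plants were pooled into a library is not given in the sources used here, so the p-values measure the spread between libraries that the labels call biological replicates.

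Filling wheat grain builds starch and storage protein in the endosperm, and most of the N that reaches it ends in gliadins and glutenins. S enters these proteins as cysteine and methionine, and storage proteins differ in how much of both they hold, so the mix a grain makes is known to follow the balance of N and S as well as the amount. By the late stages of filling the transcripts of many earlier processes decline while storage transcripts take a large share of the messenger RNA. The files give each gene by an identifier alone, without a name or description, so the members of these pathways, and the markers of endosperm, embryo or pericarp, could not be picked out, and no role is given to any gene below. No gene, transcript or promoter sequence is shown for the same reason.

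Of the 8649 genes shared by all deposited tables as used here, 4001 had enough counts to be tested. The shared set is bounded by the N-S+ data, with 8649 complete rows against 32047 for N+S+ grain. Responses of genes outside it could not be tested. The 6 libraries held 843135, 1066391 and 1100550 counts over the shared genes in N+S+ replicates 1 to 3, against 1036387, 1120137 and 1736179 in N-S+ replicates 1 to 3, all on lane 5. N+S+ replicate 2 stood apart. On the first principal component of log2 CPM (counts relative to the library's total), which held 19.7% of the variance over the 12 libraries of 600 °Cd, it scored 45.3, and the other 11 libraries lay between -16.5 and 10.5. It also had the fewest shared genes detected, 3692 against 4205 and 4092 in N+S+ replicates 1 and 3, and 3991, 4097 and 4384 in N-S+ replicates 1 to 3, and it remained lowest at 3660 when every library was thinned to the shallowest. Correlations between replicates, across genes, were 0.915 to 0.942 in N+S+ grain and 0.946 to 0.957 in N-S+ grain. None of the 6 libraries had its closest library in its own group: each lay closest to a library of N-S- grain. No replicate pair was identical, and each differed by 6.75 to 16.4 times the chi-square expected from sampling, so all 6 were counted separately.

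**Figure D1:**
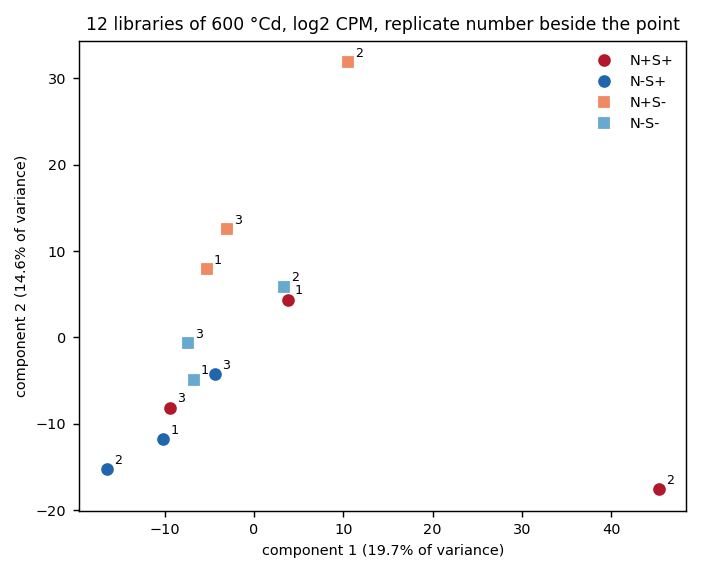
Scores of the 12 libraries of 600 °Cd on components 1 and 2 of log2 CPM (19.7% and 14.6% of the variance), with the treatment shown by colour and shape and the replicate number beside each point. N+S+ replicate 2 lies alone at 45.3 on component 1, and the other N+S+ and N-S+ libraries do not form separate groups.

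At 600 °Cd, 13 of the 4001 genes tested (0.325%) differed between N+S+ and N-S+ grain, and 12 of them (0.3% of those tested) were higher with more N. The one lower gene (0.025%) was TmLoc000637. The differences were moderate: the absolute log2 fold changes of the 13 ran from 0.75 to 1.98 with a median of 1.10, and 8 of the 12 higher genes reached 2-fold. In 12 of the 13 genes the 3 libraries of N+S+ grain did not overlap with the 3 of N-S+ grain, and the exception was TmLoc003007. Over all tested genes, 5.62% had every N+S+ library above every N-S+ library and 4.57% had every N+S+ library below. These calls come from an edgeR quasi-likelihood test in which all 54 libraries share an estimate of the spread, with Benjamini-Hochberg adjustment over the 4001 genes, and 355 genes (234 higher, 121 lower) had an unadjusted p under 0.05.

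The count of 13 rests on single libraries and on the shared spread. Without N+S+ replicate 2, the library that stands apart, no gene passed by edgeR (222 at an unadjusted p under 0.05), and without N-S+ replicate 2 none passed either (304 unadjusted). One gene passed without N-S+ replicate 1, 12 (6 of them among the 13) without N+S+ replicate 1, 23 (10 among the 13) without N-S+ replicate 3, and 59 (all 13 among them) without N+S+ replicate 3. With the spread taken from the compared groups alone, from the 12 libraries of 600 °Cd or from the 18 libraries of lane 5, no gene passed by edgeR (164, 240 and 234 at an unadjusted p under 0.05), while DESeq2 on all libraries called 39. In 272 repeats over the 13 genes and up to 21 alternatives each, all 272 kept their sign and 164 kept the call. The repeats reuse the libraries that chose the genes, so the kept signs are a description and no separate evidence. In bulk grain, fewer cells of a type and less RNA per cell cannot be told apart.

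**Figure D2:**
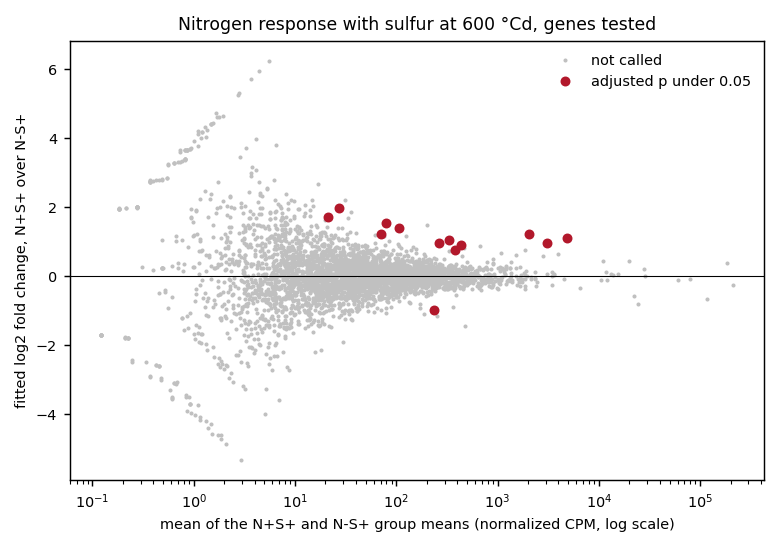
Fitted log2 fold change of N+S+ over N-S+ grain at 600 °Cd against the mean of the group means in normalized CPM (log axis), 1 point per tested gene with counts, red where the adjusted p was under 0.05. The 12 red points above 0 lie between 0.75 and 1.98, the red point below 0 is TmLoc000637, and the wide fans at the left are genes with few counts.

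The smallest p-values belonged to TmLoc002655 and TmLoc010147, both higher with more N. TmLoc002655 stood at 170.2, 194.2 and 108.3 normalized CPM (CPM over the shared genes, after correction by the trimmed mean of M values) in N+S+ replicates 1 to 3, against 43.4, 44.6 and 82.4 in N-S+ replicates 1 to 3. Every N+S+ library lay above every N-S+ library, and N-S+ replicate 3 was the nearest to them. The group means were 157.6 ± 44.3 and 56.8 ± 22.2 normalized CPM (SD, n = 3 each), a 2.65-fold difference (log2 fold change 1.41 ± 0.25 SE, edgeR adjusted p = 0.00240). TmLoc010147 stood at 128.9, 145.7 and 84.0 normalized CPM in N+S+ grain, against 50.2, 17.8 and 50.8 in the N-S+ libraries. Here N-S+ replicate 2 was far below the other 2 of its group, and the groups again did not overlap. The difference was 2.93-fold (log2 fold change 1.55 ± 0.29, edgeR adjusted p = 0.00285). Without N+S+ replicate 2 the log2 fold changes were 1.21 ± 0.28 for TmLoc002655 and 1.36 ± 0.32 for TmLoc010147 (edgeR adjusted p = 0.133 for both).

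TmLoc006517 had the tightest N+S+ group of the 13 in relative terms. Its libraries stood at 89.3, 108.6 and 97.2 normalized CPM in N+S+ grain, against 31.2, 42.1 and 51.5 in the N-S+ libraries. N+S+ replicate 3, the lowest of its group in most called genes, was here above replicate 1. The difference was 2.32-fold (log2 fold change 1.21 ± 0.25, edgeR adjusted p = 0.00810).

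Among the called genes, 3 took many reads: TmLoc001384, TmLoc010560 and TmLoc001370, with ranks by normalized CPM of 19, 28 and 37 among the tested genes. Per kilobase of the deposited gene length, TmLoc001384 averaged 3156 normalized CPM per kb in N+S+ grain and 1469 in N-S+ grain, TmLoc001370 2068 and 875.3, and TmLoc010560 1739 and 892.5, in that order of group. TmLoc001384, the only called gene among the 20 that took the most counts, stood at 7099, 7998 and 4567 normalized CPM in N+S+ grain, against 2542, 3055 and 3553 in the N-S+ libraries. The lowest N+S+ library, replicate 3, was still above the highest N-S+ library, also a replicate 3. It was 2.15-fold higher with more N (log2 fold change 1.10 ± 0.24, edgeR adjusted p = 0.0102).

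TmLoc010560 stood at 4497, 4948 and 2733 normalized CPM in N+S+ grain, against 1957, 2047 and 2245 in the N-S+ libraries. N-S+ libraries were close together and N+S+ replicate 3 lay nearer to them than to the other N+S+ libraries. The difference was 1.95-fold (log2 fold change 0.96 ± 0.19, edgeR adjusted p = 0.00609). TmLoc001370 had a similar spread, at 3557, 3540 and 1523 normalized CPM in N+S+ grain, against 995.3, 1156 and 1496 in the N-S+ libraries. N+S+ replicate 3 and N-S+ replicate 3 almost met. Its difference was 2.36-fold (log2 fold change 1.24 ± 0.25, edgeR adjusted p = 0.00609).

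A further 4 higher genes gave group means between 177.7 and 573.0 normalized CPM. TmLoc000245 stood at 507.4, 529.0 and 310.5 normalized CPM in N+S+ grain, against 286.1, 103.3 and 252.4 in the N-S+ libraries (log2 fold change 1.06 ± 0.26, edgeR adjusted p = 0.0376). N+S+ replicate 3 was close to N-S+ replicate 1, and N-S+ replicate 2 was the lowest by far. TmLoc001747 stood at 362.0, 449.8 and 225.4 normalized CPM in N+S+ grain, against 174.9, 186.1 and 172.2 in the N-S+ libraries (0.96 ± 0.23, edgeR adjusted p = 0.0376). The N-S+ libraries were nearly equal, so the spread in this gene was that of N+S+ grain.

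TmLoc011669 had the smallest change of the 12. It stood at 381.8, 640.2 and 397.8 normalized CPM in N+S+ grain, against 250.9, 293.2 and 301.0 in the N-S+ libraries (log2 fold change 0.75 ± 0.16, edgeR adjusted p = 0.0102). N+S+ replicate 2 was far above the others, and without it the log2 fold change was 0.45 ± 0.16 (edgeR adjusted p = 0.638), a larger shift than in the other called genes. TmLoc003007 was the gene whose groups overlapped. It stood at 738.8, 718.1 and 261.9 normalized CPM in N+S+ grain, against 325.4, 299.6 and 284.8 in the N-S+ libraries (0.91 ± 0.22, edgeR adjusted p = 0.0334), so that N+S+ replicate 3 was below all 3 N-S+ libraries.

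The largest fold changes came from the genes with the fewest counts. TmLoc004851 had 30, 42 and 29 counts in N+S+ replicates 1 to 3, against 4, 1 and 29 in N-S+ replicates 1 to 3. Scaled to library size these were 49.6, 53.7 and 32.0 normalized CPM against 5.42, 1.27 and 21.3, so N-S+ replicate 3 stood apart from the other low-N libraries and closer to N+S+ replicate 3. The fitted difference was 3.93-fold (log2 fold change 1.98 ± 0.45, edgeR adjusted p = 0.0240). TmLoc011264 had 15, 34 and 26 counts in N+S+ grain, against 10, 5 and 13 in the N-S+ libraries, or 24.8, 43.4 and 28.7 against 13.6, 6.37 and 9.57 normalized CPM. Its groups did not overlap, and the difference was 3.31-fold (log2 fold change 1.73 ± 0.42, edgeR adjusted p = 0.0376).

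TmLoc000637 was the only called gene lower in N+S+ grain. It stood at 170.2, 132.9 and 168.0 normalized CPM in N+S+ replicates 1 to 3, against 284.8, 370.9 and 279.6 in N-S+ replicates 1 to 3. All 3 N+S+ libraries were well below all 3 N-S+ libraries, and replicate 2 was the lowest in N+S+ grain and the highest in N-S+ grain. The means were 157.0 ± 20.9 and 311.8 ± 51.3 normalized CPM (SD, n = 3 each; log2 fold change -0.99 ± 0.23, edgeR adjusted p = 0.0334). It also lost its call when library totals replaced the scaling factors, where 12 genes passed and all were higher.

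**Figure D3:**
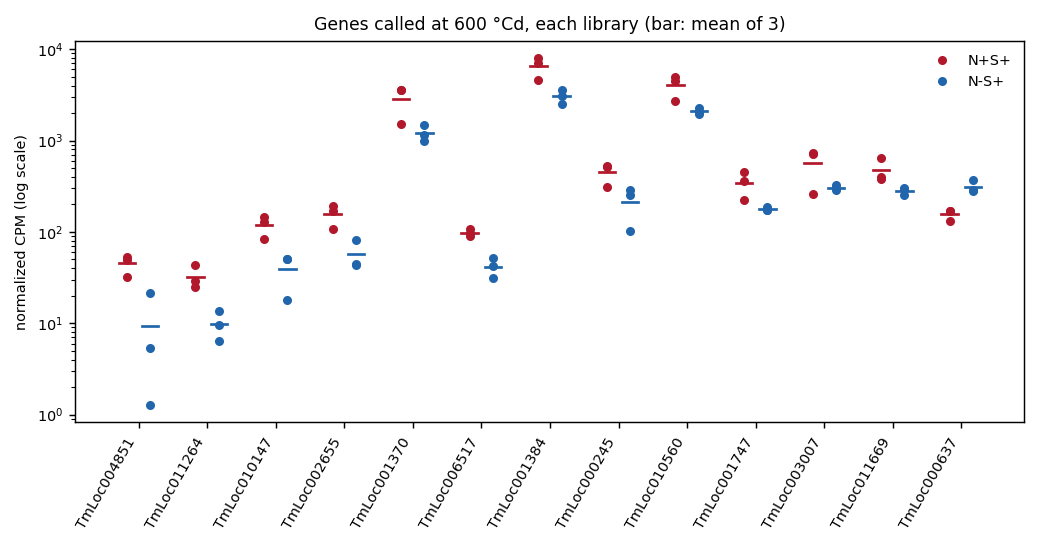
Normalized CPM (log axis) of the 13 called genes in each library of 600 °Cd, with the 3 N+S+ libraries in red to the left of the 3 N-S+ libraries in blue and a bar at each mean, in order of fitted fold change. The groups are apart in 12 genes, and TmLoc003007 has 1 red point below the blue ones. TmLoc000637 at the right is the only gene with all red points below the blue ones.

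The N+S+ libraries kept nearly the same order across the 12 higher genes. Replicate 2 was the highest of its group in 10 of the 12 and never the lowest, and replicate 3 was the lowest in 9 and never the highest. Among N-S+ libraries, replicate 3 was the highest in 8 of the 12. So the library that stands apart on component 1 is also the one in which these genes were most abundant, and its part in the result was not tested beyond the fit without it. There the 12 genes kept positive log2 fold changes, the smallest being that of TmLoc011669 and the largest that of TmLoc004851.

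The called genes were read more deeply than most. Their median normalized CPM over the 6 libraries was 261.7 against 32.4 for all tested genes, and 11 of the 13 lay above that median. The SE of the log2 fold change had a median of 0.25 in the called genes and 0.43 over all tested genes. A change of the same size in a gene with few counts would therefore have been missed more readily. Lengths ran from 219 to 3545 bases, with a median of 1389 bases in the called genes and 1583 in the tested ones.

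Just behind the threshold came mostly genes of the same direction. Of the 11 genes with the next smallest p-values, 10 had a positive log2 fold change and none passed (edgeR adjusted p from 0.0641 to 0.0905). In some, N+S+ replicate 2, the library that stands apart, held most of the group's counts. It held 22 of 26 in TmLoc004227, 21 of 27 in TmLoc000611, 83 of 121 in TmLoc009588 and 129 of 236 in TmLoc001170. The groups overlapped in TmLoc000611, TmLoc009588 and TmLoc001993. TmLoc012630 stood at 371.9, 589.1 and 412.2 normalized CPM in N+S+ grain, against 253.6, 251.1 and 302.5 in the N-S+ libraries, without overlap (log2 fold change 0.76 ± 0.20, edgeR adjusted p = 0.0641). TmLoc011696 had the more even N+S+ libraries, at 64.5, 48.6 and 56.4 normalized CPM against 32.5, 20.4 and 19.1 in N-S+ grain (1.25 ± 0.33, edgeR adjusted p = 0.0718). The exception in direction was TmLoc005439, at 16.5, 11.5 and 9.95 normalized CPM in N+S+ libraries and 55.6, 44.6 and 41.9 in N-S+ libraries. Its libraries were far apart between groups, but it rested on 28 counts in N+S+ grain and 133 in N-S+ grain (-1.91 ± 0.51, edgeR adjusted p = 0.0767).

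TmLoc010768 and TmLoc010344, named because of earlier results of these data, had higher values in N+S+ grain without passing the test. TmLoc010768 stood at 39.7, 29.4 and 23.2 normalized CPM in N+S+ grain, against 5.42, 10.2 and 11.8 in the N-S+ libraries (log2 fold change 1.64 ± 0.48, edgeR adjusted p = 0.118). For TmLoc010344 the values were 23.1, 29.4 and 12.2 normalized CPM against 4.07, 8.92 and 5.89 (1.73 ± 0.60, edgeR adjusted p = 0.233). Neither gene's groups overlapped.

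Among the shared genes, the transcripts that took most of the counts were split in direction, and 1 of the 20, TmLoc001384, passed the test. The shared genes held 843135, 1066391 and 1100550 counts in N+S+ replicates 1 to 3. The full N+S+ table, with 32047 rows, held 2543987, 3256089 and 3456507 in the same libraries. The shares below are therefore not shares of all grain transcripts, and genes outside the shared set were not ranked. The 20 genes together took 65.3%, 65.8% and 61.4% of the counts over the shared genes in N+S+ replicates 1 to 3, against 67.4%, 67.3% and 63.3% in N-S+ replicates 1 to 3. The groups overlapped, with means of 64.2% ± 2.41 and 66.0% ± 2.31 (SD, n = 3 each). The difference of -1.79 percentage points was not beyond the spread of the libraries (two-sided exact permutation test over 20 arrangements, p = 0.5, smallest possible p 0.1). Of the 20 log2 fold changes, 9 were positive and the median was -0.04, against 48.8% positive and a median of 0 over all tested genes.

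TmLoc012286 and TmLoc001192, with the most counts among the 8649 shared genes, exchanged rank in their mean share of those counts. TmLoc012286 took 17.9%, 13.7% and 15.6% of these counts in N+S+ grain, against 10.9%, 12.6% and 11.2% in the N-S+ libraries. All N+S+ libraries were higher, yet the fitted change did not pass (log2 fold change 0.40 ± 0.29, edgeR adjusted p = 0.736). TmLoc001192 took 14.8%, 16.2% and 12.3% in N+S+ grain, against 17.9%, 16.9% and 15.0% in the N-S+ libraries, with overlap (-0.25 ± 0.24, edgeR adjusted p = 0.834). Per kilobase of gene length TmLoc001192 remained above TmLoc012286 in both groups, at 26.1% against 6.57% per kb in N+S+ grain and 30.1% against 4.82% per kb in N-S+ grain.

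Another 3 shared genes with large shares of the same counts had lower values in N+S+ grain without passing the test. TmLoc001996 took 6.34%, 7.42% and 6.70% of the counts in N+S+ grain, against 11.6%, 10.9% and 8.83% in the N-S+ libraries. No library overlapped, and the means were 6.82% ± 0.551 and 10.4% ± 1.43 (SD, n = 3 each; log2 fold change -0.67 ± 0.26, edgeR adjusted p = 0.350). TmLoc001563 took 1.32% ± 0.185 in N+S+ grain and 2.23% ± 0.563 in N-S+ grain (-0.81 ± 0.29, edgeR adjusted p = 0.302). TmLoc012192 took 1.38% ± 0.447 and 1.94% ± 0.215 in the same order (-0.57 ± 0.37, edgeR adjusted p = 0.712). TmLoc003295 and TmLoc012126 had higher means in N+S+ grain, also without passing. TmLoc003295 took 1.73% ± 0.198 in N+S+ libraries and 1.25% ± 0.353 in N-S+ libraries (0.43 ± 0.27, edgeR adjusted p = 0.692), and TmLoc012126 2.28% ± 0.230 and 1.91% ± 0.906 (0.22 ± 0.28, edgeR adjusted p = 0.903). The remaining 3 of the 10 most abundant had means within 1 SD of each other: TmLoc005084 took 5.88% ± 0.560 in N+S+ libraries and 5.97% ± 0.793 in N-S+ libraries, TmLoc012125 4.41% ± 0.593 and 4.65% ± 0.981, and TmLoc011777 2.17% ± 0.161 and 2.08% ± 0.227.

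The 3 earlier treated stages gave no called gene. In N+S+ against N-S+ grain no gene passed at 300, 400 or 500 °Cd by edgeR (0% called at each, with 100, 292 and 360 genes at an unadjusted p under 0.05). At 600 °Cd 355 genes had such a p. Depth differed by stage. These libraries held 959379 to 1139805 shared-gene counts at 300 °Cd, 520395 to 641733 at 400 and 625578 to 906215 at 500. At 600 °Cd they held 843135 to 1736179, and the part of depth in the counts of called genes was not tested. The 13 genes of 600 °Cd had the same sign in 4 of 13 at 300 °Cd, 9 at 400 °Cd and 12 at 500 °Cd, stages that share no library with 600 °Cd. Of the 12 higher genes, 3, 8 and 11 were positive at 300, 400 and 500 °Cd. Over all tested genes the positive share was 49.9%, 48.2% and 50.0% at these stages, and the trend with stage was not tested. The median log2 fold change of the 12 higher genes was -0.07 at 300, 0.18 at 400, 0.35 at 500 and 1.16 at 600 °Cd, where they were selected, and that of all tested genes lay between -0.00041 and 0.00018 at the 4 stages.

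The change in response with stage passed the test in 3 genes (0.075% of 4001), all larger at 600 °Cd than the mean of 300, 400 and 500 °Cd. Each stage's difference lies within 1 lane, and 600 °Cd shares its lane with 500 °Cd. They were TmLoc002655 (log2 response larger by 1.38 ± 0.28, edgeR adjusted p = 0.0222), TmLoc010147 (1.55 ± 0.32, edgeR adjusted p = 0.0222) and TmLoc006517 (1.30 ± 0.28, edgeR adjusted p = 0.0318). For TmLoc002655 the N+S+ mean was 675.5 normalized CPM and the N-S+ mean 697.0 at 300 °Cd, and in that order of group the means were 497.5 and 595.0 at 400, 315.6 and 242.8 at 500, 157.6 and 56.8 at 600 °Cd. It was lower at each stage than at the one before in both treatments, and the groups parted at the end. TmLoc010147 was highest at 400 °Cd, with N+S+ at 310.9 and N-S+ at 332.2 normalized CPM, nearly equal at 500 °Cd (263.9 and 270.9), and at 119.5 and 39.6 at 600 °Cd. TmLoc006517 was also nearly equal at 500 °Cd (136.0 and 129.0) and at 98.4 and 41.6 normalized CPM at 600 °Cd. None of the 3 passed without N+S+ replicate 1 or 2 or N-S+ replicate 1 or 2 at 600 °Cd, while 9 genes passed without N+S+ replicate 3. With the spread of the 24 S-supplied libraries of the treated stages alone, the same 3 passed.

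Most of the genes with more transcript in N+S+ grain had lower means at later stages. Of the 12, 10 had a lower mean at 500 than at 300 °Cd in both treatments, against 39.2% of all tested genes. These libraries are outside the contrast that chose the genes, but like all 54 they entered its filter and its shared spread. Between 500 and 600 °Cd, all on lane 5, 8 of the 12 were lower at the later stage in N+S+ grain (5.02% of tested genes) and 11 of the 12 in N-S+ grain (9.05%) by edgeR, with a median log2 change of -0.95 for N+S+ and -1.67 for N-S+ grain. The libraries of 600 °Cd also chose these genes, so these counts and medians are a description. TmLoc001747 had the largest such change in both, -2.43 ± 0.23 in N+S+ grain and -2.97 ± 0.24 in N-S+ grain. TmLoc011669 and TmLoc003007 departed from the pattern: in N+S+ grain their means at 600 °Cd were 0.08 and 0.55 higher than at 500 °Cd on the log2 scale, neither past the threshold.

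TmLoc000637, the lower gene, had the opposite sign of response to N, while its means too were lower at 500 than at 300 °Cd in both treatments. Its N+S+ mean and N-S+ mean were 206.0 and 248.0 normalized CPM at 300 °Cd, 200.0 and 266.1 at 400, 112.5 and 203.3 at 500, 157.0 and 311.8 at 600 °Cd. It was lower in N+S+ grain at all 4 stages, and its log2 fold change at 500 °Cd, -0.86 ± 0.25, did not pass (edgeR adjusted p = 0.201). TmLoc001370 and TmLoc011264 likewise had log2 fold changes of 0.83 ± 0.25 and 1.01 ± 0.29 at 500 °Cd (edgeR adjusted p = 0.201 for both), the widest of the 12 higher genes at that stage.

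**Figure D4:**
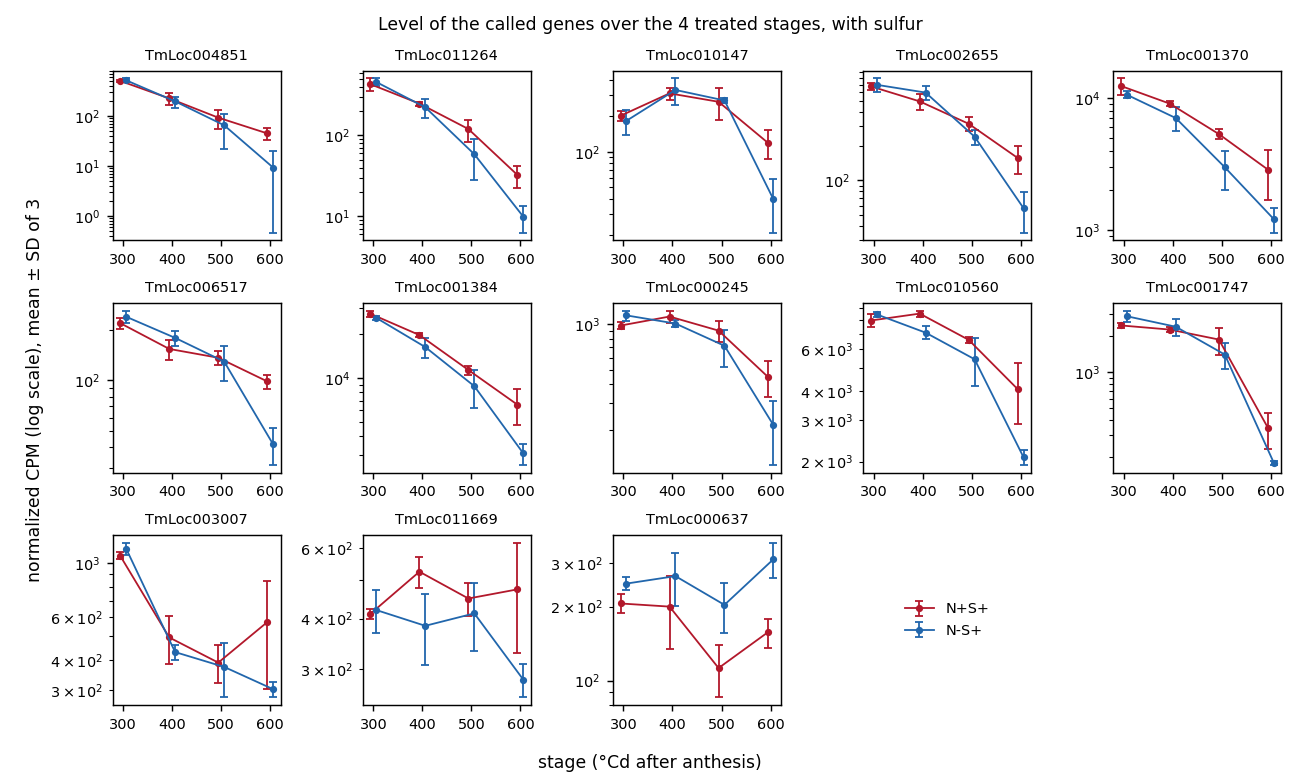
Mean ± SD (n = 3) of normalized CPM (log axes, each panel with its own range) of the 13 called genes at 300, 400, 500 and 600 °Cd, N+S+ in red and N-S+ in blue. Most lines decline and part at 600 °Cd, TmLoc000637 is lower in N+S+ grain at all 4 stages, and the lower error bar of TmLoc004851 in N-S+ grain at 600 °Cd is cut because its SD of 10.6 exceeds its mean of 9.35.

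Without S, the same genes had differences of the same sign, and 2 of the 13 passed the test. N+S- against N-S- grain at 600 °Cd shares no library with the S-supplied comparison, and all 13 genes had the same sign there, against 54.7% of all tested genes and 59.9% of those with at least 200 normalized CPM. The low-N plants of that pair received no N at all, so the step in N was larger. The median log2 fold change of the 12 higher genes was 0.54 without S. In that comparison 25 genes passed (0.625%), among them TmLoc000245 (log2 fold change 1.34 ± 0.27, edgeR adjusted p = 0.00218) and TmLoc000637 (-1.22 ± 0.25, edgeR adjusted p = 0.00231). TmLoc000245 averaged 404.9 ± 111.3 normalized CPM in N+S- grain and 160.5 ± 42.6 in N-S- grain (SD, n = 3 each). TmLoc000637 averaged 97.6 ± 19.6 and 226.6 ± 52.6 in the same order.

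Other called genes had fitted differences near 0 without S. TmLoc002655 averaged 155.6 ± 67.6 normalized CPM in N+S- grain and 150.0 ± 75.7 in N-S- libraries (log2 fold change 0.05 ± 0.24), and TmLoc006517 70.2 ± 18.9 and 69.0 ± 25.0 (0.03 ± 0.25). For TmLoc002655 these means were near that of N+S+ grain (157.6), and N-S+ grain stood low (56.8). For TmLoc006517 they lay between N+S+ grain (98.4) and N-S+ grain (41.6). In 10 of the 12 higher genes N-S+ grain had the lowest mean of the 4 treatments at 600 °Cd, against 27.4% of tested genes, though its libraries took part in choosing them. TmLoc001384 averaged 6612 ± 1684 for N+S- and 4035 ± 1696 for N-S- grain (0.71 ± 0.23, edgeR adjusted p = 0.213), next to 6555 ± 1779 for N+S+ and 3050 ± 505 for N-S+ grain.

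The difference between the N responses with and without S was also tested. No gene passed by edgeR (0% of 4001, with 232 at an unadjusted p under 0.05), and 4 passed by DESeq2. The lowest edgeR adjusted p was 0.0923. Low-N plants received 0.5 mM N with S and no N without S. The test therefore cannot separate S supply from the size of the step in N. TmLoc010460 had the smallest p of the 4001, with a difference of responses of -2.77 ± 0.62 on the log2 scale. Its means were 11.1 ± 8.52 normalized CPM for N+S+ and 25.8 ± 5.66 for N-S+ grain, next to 265.4 ± 59.8 for N+S- and 92.8 ± 25.9 for N-S- grain, so its values ran in opposite directions. N+S+ replicate 2 held 1 of its 25 counts in N+S+ grain. TmLoc011088 had a like pattern (-1.99 ± 0.46), with 64.5 ± 14.3 and 99.7 ± 11.1 with S and 442.4 ± 86.8 and 173.7 ± 69.5 without. TmLoc009002 had near-equal means with S and unequal ones without, at 3449 ± 485 and 3413 ± 453 with S and 802.1 ± 283.9 and 2205 ± 247 without (1.48 ± 0.35). TmLoc012208 was at 595.2 ± 190.2 and 330.4 ± 149.5 with S and 205.0 ± 81.4 and 339.2 ± 171.0 without (1.56 ± 0.37).

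**Figure D5:**
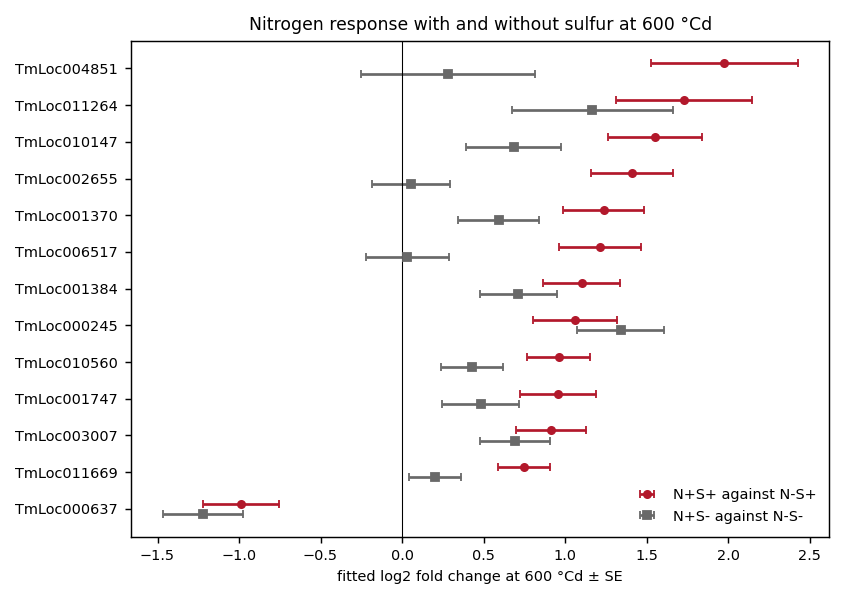
Fitted log2 fold change ± SE at 600 °Cd of the 13 called genes, N+S+ against N-S+ grain as red circles and N+S- against N-S- grain as grey squares. All 13 pairs lie on the same side of 0, with TmLoc002655 and TmLoc006517 near 0 without S, and the genes were chosen by the red values.

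Over all genes the responses with and without S were weakly related. Across genes, which are not independent replicates, Pearson's r was 0.09 for the 4001 tested genes, 0.23 for the 1618 with at least 50 normalized CPM over the libraries compared, and 0.40 for the 584 with at least 200. The same sign was found in 54.7%, 56.3% and 59.9% of them. The comparisons share a stage, a lane and the genes' counting depth, and no library.

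Lists of genes from other libraries of the study were set against the present comparison. Of 140 genes lower at 500 than at 400 °Cd in N+S- grain (3.5% of tested genes), 101 had a positive log2 fold change in N+S+ against N-S+ grain, with a median of 0.25. Of the 148 higher at 500 °Cd (3.7%), 40 were positive, with a median of -0.13. All tested genes had 1953 positive and a median of 0. Most genes of the declining list thus had higher values with more N and most of the increasing list lower ones, a description of these libraries that was not tested. The declining list held 4 of the 12 higher called genes (TmLoc001747, TmLoc002655, TmLoc004851 and TmLoc011264) and the lower one, TmLoc000637. Its median was 0.15 without N+S+ replicate 2 and up to 0.40 without N+S+ replicate 3, and that of the increasing list was between -0.26 and -0.07 with any of the 6 libraries left out.

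Genes called for N supply in grain without S leaned the same way with S. Of the 17 genes (0.425%) that were higher with N in grain without S at 600 °Cd, 13 were positive in N+S+ against N-S+ grain, with a median of 0.35 and TmLoc000245 called. Of the 8 lower genes (0.2%), 1 was positive, with a median of -0.46 and TmLoc000637 called. Genes that marked the absence of S in N-rich grain at 300 and 400 °Cd differed by list. Of the 8 higher genes (0.2%), 2 were positive, with a median of -0.36, and of the 18 lower genes (0.45%), 9 were positive, with a median of -0.03, and none of either list passed.

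In early grain the called genes had moved in both directions. Of the 12 higher genes, 8 had gone up between 100 and 300 °Cd in N-S- grain (24.5% of tested genes) and 4 had gone down (20.1%), in libraries outside the contrast that chose the genes but within its shared spread. The 981 genes that went up then and the 805 that went down had medians of 0.04 and 0 in the present comparison, near that of all tested genes.

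Among tested genes, 10 had no count in 1 of the groups and at least 10 in the other, and none passed the test. In N-S+ grain 5 were without counts. TmLoc004227 had 1, 22 and 3 counts in N+S+ replicates 1 to 3, and 84.6% of its counts came from replicate 2. Against a floor of 3 counts over the N-S+ group it was 10.9-fold higher. Such folds leave out the counting error and the spread of the libraries. TmLoc002743 was more even, with 3, 10 and 8 counts, 8.80-fold higher against the same floor (edgeR adjusted p = 0.0951). In N+S+ grain the other 5 were without counts. TmLoc009201 had 6, 4 and 6 counts in N-S+ replicates 1 to 3. With the N+S+ group at the floor it was 4.24-fold lower with more N (edgeR adjusted p = 0.199).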

How the data were processed

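Polyadenylated RNA of whole grain was sequenced with strand kept, as 125-base read pairs, per the labels' protocols. Each treatment has 1 table by the authors, with deposited raw counts per gene and library, per the file headers, beside a normalized signal. The deposited constant of a library is the median over genes of the ratio of count to that signal. The submitters' processing notes name CASAVA 1.8.4, BWA 0.7.12-r1039 and edgeR without a version. No source used here gives the reference or the tool that counted reads, so reads shared by near-identical or overlapping genes may have been split in unknown ways.

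The tables as used here have 32047 rows (N+S+, N-S-), 18308 rows (N+S-) and 8649 complete rows (N-S+, where 1 incomplete row was left out), and the 8649 shared genes were used. Shared-gene totals ran from 370241 to 1736179 counts over the 54 libraries, and precision is limited by counting error for genes with few counts. Raw counts were fitted with edgeR 4.0.16 (R 4.3.3): filterByExpr by group, TMM scaling, a mean for each of 18 groups over all 54 libraries (36 residual degrees of freedom), quasi-likelihood tests and Benjamini-Hochberg adjustment over 4001 genes, calling genes at an adjusted p under 0.05. A standard error is the size of the log2 fold change over the square root of F. Where a group had no count, a fold is a bound against 3 counts over the group. Genes named are all called genes, the next by p up to 24, the 10 most abundant, up to 4 with the smallest p in each difference of responses, those of an earlier account and those with a group without counts. Members, lists and comparisons were chosen with earlier results of these data known. Lists by function or tissue could not be matched to identifiers. Alternatives were other scalings, filters and libraries, a replicate block, thinning, DESeq2 1.42.0 and each library left out. Fits to lane 5, the deposited constants as library sizes and list medians without each library were added after seeing the data.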

Additional observations from a re-analysis of the deposited data

Results flagged for a closer look

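The response to N with S differed between stages in 3 genes. TmLoc002655, TmLoc010147 and TmLoc006517 had larger log2 fold changes of N+S+ over N-S+ grain at 600 °Cd than on average at 300, 400 and 500 °Cd, by 1.38 ± 0.28, 1.55 ± 0.32 and 1.30 ± 0.28 (SE, edgeR adjusted p = 0.0222, 0.0222 and 0.0318). Each single-stage difference lies within a lane, and the stages do not all share one. None of the 3 passed when N+S+ replicate 1 or 2, or N-S+ replicate 1 or 2, of 600 °Cd was left out, or with every library thinned to the shallowest. Groups of 3 libraries were not searched for single outlying values.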

How the results depend on the processing

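The count of 13 genes at 600 °Cd became 53 (44 higher) without the expression filter, 39 (33 higher) by DESeq2, 7 with all libraries thinned, and 0 with the spread of the compared groups, of the 12 libraries of 600 °Cd or of the 18 of lane 5. The count of 0 for the difference with and without S became 23 without the filter, 4 by DESeq2 and 2 with thinning. The count of 3 for the difference by stage became 21 without the filter, 6 by DESeq2 and 0 with thinning. With 1 of the 6 libraries left out the counts ran from 0 to 59, 0 to 4 and 0 to 9 in that order. The causes were not tested; no filter also means more genes tested (6379), and thinning fewer (3368). Other scalings, a stricter filter and leaving out the 20 most abundant genes or the N-S- libraries of 500 °Cd kept all counts within 1.5 times. The share difference of the 20 most abundant genes stayed negative, between -3.12 and -0.41 percentage points.

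Replicate numbers did not pair the libraries: deviations of same-numbered N+S+ and N-S+ libraries correlated at 0.04, -0.05 and -0.11 over all tested genes. Over the 1612 genes with at least 50 normalized CPM the values were 0.15, -0.18 and -0.27 for replicates 1 to 3. Of the 6 libraries, 2 correlated best with their own number. With the replicate block in the fit to all libraries 14, 3 and 3 genes passed, and in the fit to the compared groups 0, 6 and 3, for the difference at 600 °Cd, with and without S, and by stage.

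No called gene changed sign. Of 979 repeats over the named genes 17 did, all in genes near 0. TmLoc009002 (0.02) was at -0.0057 with DESeq2 size factors, -0.00082 without the filter, -0.0030 with the stricter filter, -0.0059 by DESeq2, -0.0024 without the N-S- libraries of 500 °Cd, -0.0088 thinned, -0.0059 without the 20 most abundant genes and -0.087 to 0.11 with a library left out. TmLoc011777 (-0.0031) was at 0.055 with library totals, 0.0038 with the replicate block, 0.028 thinned and -0.12 to 0.12 with a library left out. TmLoc012125 and TmLoc005084 ran from -0.26 to 0.0076 and from -0.24 to 0.032 with a library left out. Depth limits genes under about 10 normalized CPM, whose standard errors are wide.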

Other observations

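The genes called at 600 °Cd had diverse histories earlier in development. TmLoc010147 averaged 5.72 ± 3.58 normalized CPM at 100 °Cd and 17.8 ± 5.23 at 200 °Cd in N-S- grain (SD, n = 3 each), below its levels at all treated stages. TmLoc011264 averaged 1324 ± 82.0 and 999.4 ± 56.1 at those stages, and TmLoc004851 913.5 ± 149.3 and 1083 ± 82.4, far above their levels at 600 °Cd. TmLoc000637, the lower gene, averaged 2.29 ± 1.69 at 100 °Cd and 67.8 ± 8.68 at 200 °Cd, and its highest mean of all 18 groups was that of N-S+ grain at 600 °Cd.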
